A study of Homo sapiens with 8 samples.

Results

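The glucose-regulated proteins GRP78 and GRP94 are encoded by HSPA5 and HSP90B1. All probe sets that the platform annotation assigns to either gene were read one by one, which gave 2 probe sets for HSPA5 and 4 for HSP90B1, or 6 of the 54613 on the array that are not controls, and 2 of 19775 genes. Expression was measured in HT1080, an established human fibrosarcoma cell line, on Affymetrix Human Genome U133 Plus 2.0 arrays, where a probe set is a group of short oligonucleotides that read 1 transcript or a few similar ones. There were 8 conditions with 1 array each, all collected at 18 h, so no difference below has a replicate check, an error or a p-value, and the number of arrays limits the precision.

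The 4 stressed conditions held cells in 10 mM 2-deoxy-D-glucose (2DG), a glucose analog that blocks glycolysis and N-glycosylation, with 10 µM compound C (2DG+CC), 10 µM versipelostatin (2DG+VST), 100 µM phenformin (2DG+Phen) or no compound (2DG). The other 4 held cells in normal growth medium with the same dose of compound C (CC), versipelostatin (VST) or phenformin (Phen), or with none (control). Compound C, also called dorsomorphin, is a kinase inhibitor, versipelostatin is a macrocyclic compound of microbial origin and phenformin is a biguanide that blocks mitochondrial respiration. The compounds went into the medium just ahead of 2DG. The question was how inhibitors of the unfolded protein response (UPR) act on this stress response. The cells were of 1 line, and nothing in the sources used here tells whether an array stands for 1 culture or several.

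GRP78, also known as BiP, is the HSP70 chaperone of the endoplasmic reticulum (ER). It binds unfolded chains as they enter the ER and holds the UPR sensors PERK, IRE1 and ATF6 inactive until unfolded protein draws it away. GRP94 is the HSP90 chaperone of the same compartment and folds a narrower set of clients, among them integrins and Toll-like receptors. Both genes are standard UPR targets: cleaved ATF6 and the spliced form of XBP1, together with the CCAAT-binding factor NF-Y, activate them through the ER stress response element, CCAAT and CCACG separated by a short spacer.

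The promoters are shown because they carry a sequence feature that both genes share. Both genes are already known as targets of this element, so a match in them is not an independent result, however rare the pattern is among promoters. RefSeq places them (GRCh38.p14) at chr9:125241344-125241593 on the minus strand for HSPA5 and at chr12:103930160-103930409 on the plus strand for HSP90B1. Each is the 250 bases before the start of the gene, written on the strand of the gene, with the long form of the element (CCAAT, then 9 bases of any kind, then CCACG) in capitals, on either strand.
HSPA5: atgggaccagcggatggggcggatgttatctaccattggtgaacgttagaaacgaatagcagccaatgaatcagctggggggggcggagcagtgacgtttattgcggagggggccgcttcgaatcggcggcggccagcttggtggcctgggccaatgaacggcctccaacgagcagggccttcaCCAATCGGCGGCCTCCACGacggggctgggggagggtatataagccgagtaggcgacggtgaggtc
HSP90B1: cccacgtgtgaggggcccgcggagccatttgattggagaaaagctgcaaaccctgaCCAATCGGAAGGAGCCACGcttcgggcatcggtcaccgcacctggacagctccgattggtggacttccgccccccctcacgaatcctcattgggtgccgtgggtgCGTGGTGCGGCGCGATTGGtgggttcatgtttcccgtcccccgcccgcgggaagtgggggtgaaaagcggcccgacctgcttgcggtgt
HSPA5 held 1 match, from base −66 to −48 before the start, and HSP90B1 held 2, from −194 to −176 on its own strand and from −89 to −71 on the other. This 19-base pattern was present in 26 of 35116 RefSeq promoters of the same length (0.074%). The short form (ATTGG, then 1 base of any kind, then CCACG) and the element TGACGTGG, each searched on both strands in the same windows, had no match in either promoter and stood in 0.0513% and 0.612% of all promoters. The letters CCAAT alone, which the pattern above contains, occurred 4 times in HSPA5 and 5 times in HSP90B1, and were found in 32% of promoters. A match is a description of the letters and not evidence that a factor was bound in these cells.

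The values are log2 intensities made by RMA, so that a difference of 1 is 2-fold, and a probe set counted as expressed when it reached a log2 value of 6 on at least 1 array (15503 probe sets, 8429 genes). All 6 probe sets were expressed. Array medians over all probe sets but the controls lay between 3.12 and 3.28. Of 8 mesenchymal markers, 7 were expressed, with VIM (vimentin) between 13.24 and 13.65, while EPCAM, CDH1, PTPRC, CD3E and ALB stayed at or below 3.20 on all arrays and KRT8, a keratin listed with them, reached 8.82. The poly-A controls, 24 probe sets for bacterial transcripts usually spiked in ahead of labelling, read higher than in 2DG alone by 0.81 in 2DG+CC, 0.49 in 2DG+VST and 0.30 in 2DG+Phen, and 0.36 higher in 2DG than in control. Scaling the arrays on these controls lowers every difference in these comparisons by those amounts. Scaling on the 18 hybridization controls lowers them by 0.49, 0.30 and 0.33 in the 3 mixed conditions and by 0.18 in 2DG, and setting the medians of the expressed probe sets equal raises the 3 by 0.21, 0.23 and 0.28.

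On all 6 probe sets the 4 arrays with 2DG read higher than the 4 arrays without it, which was true of 2.79% of all expressed probe sets. That separation rests on the scaling: it held for 6 of 6 with the array medians set equal or after quantile normalization, for 2 of 6 (211936_at and 216450_x_at) on the hybridization controls and for 0 of 6 on the poly-A controls. The main HSPA5 probe set, 211936_at, is the brighter of the pair. It read 13.42 in 2DG+CC, 12.33 in 2DG+VST, 13.41 in 2DG+Phen and 12.89 in 2DG, against 10.58 in CC, 11.55 in VST, 11.28 in Phen and 11.19 in control. The highest values were thus those of 2DG with compound C and 2DG with phenformin, above 2DG alone, and the lowest was that of compound C without 2DG. The highest value of any probe set was just over 14 on each array (14.07 at least), so this probe set worked near the upper end of the scale.

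The dimmer HSPA5 probe set, 230031_at, read 8.96 in 2DG+CC, 7.67 in 2DG+VST, 8.35 in 2DG+Phen and 9.04 in 2DG, against 7.53 in CC, 7.02 in VST, 7.27 in Phen and 7.21 in control. Here 2DG alone was the highest and versipelostatin without 2DG the lowest, and the step between 2DG+VST and CC was small. The order of the conditions was therefore not the same on both probe sets of the gene.

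HSP90B1 had 3 bright probe sets that ranked the 8 arrays in the same order. 216449_x_at, the brighter of those annotated to HSP90B1 alone, read 11.08 in 2DG+CC, 10.85 in 2DG+VST, 12.09 in 2DG+Phen and 12.33 in 2DG, against 9.85 in CC, 10.44 in VST, 10.32 in Phen and 10.39 in control. 200598_s_at read 11.51, 11.26, 12.47 and 12.91 in the same 4 conditions with 2DG, against 10.24, 11.08, 10.75 and 10.92 in CC, VST, Phen and control. 200599_s_at, in that order again, read 12.04, 11.81, 12.84 and 12.99 with 2DG, against 10.89, 11.54, 11.44 and 11.53 without. In all 3, 2DG alone was the highest, phenformin left the value close to it, and compound C and versipelostatin brought it much of the way to control. The annotation of 200598_s_at and 200599_s_at also names MIR3652, a microRNA gene that RefSeq places inside HSP90B1.

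The remaining HSP90B1 probe set, 216450_x_at, was much dimmer, with 7.32 in 2DG+CC, 6.89 in 2DG+VST, 8.00 in 2DG+Phen and 7.74 in 2DG, against 5.62 in CC, 6.10 in VST, 6.25 in Phen and 6.23 in control. Its highest array was 2DG with phenformin. The suffixes x_at and s_at mark probe sets whose probes may also read other transcripts. Over the 8 arrays the HSP90B1 probe sets correlated with each other at r = 0.93 or more (6 pairs), the HSPA5 probe sets at 0.83 (Spearman 0.71) and probe sets of different genes at 0.77 to 0.95 (8 pairs). These values describe 8 arrays of which 4 share 2DG.

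**Figure D1:**
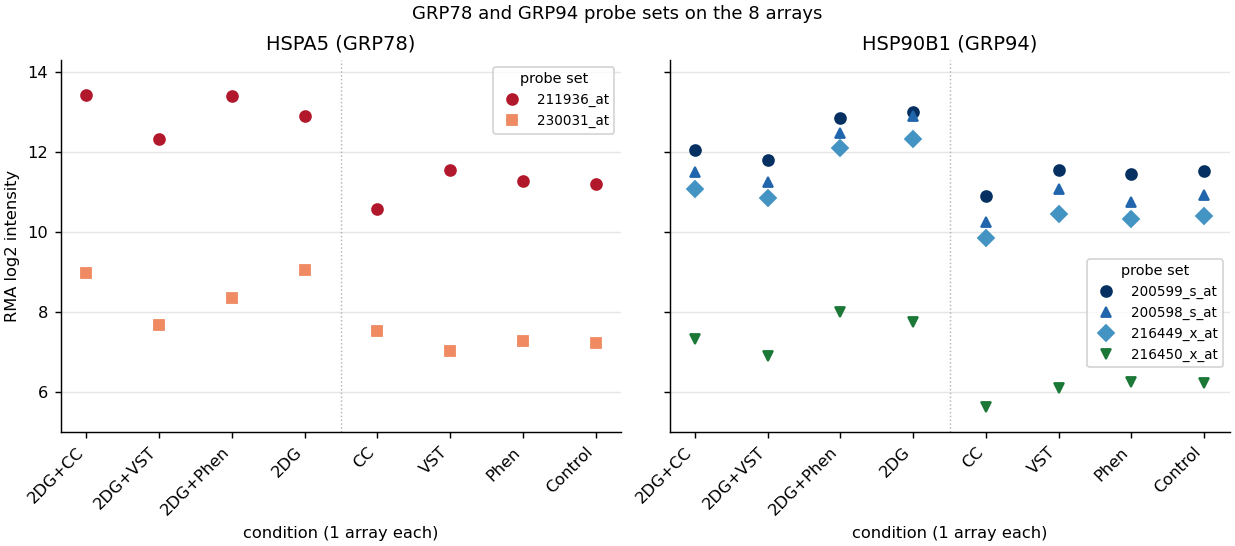
RMA log2 intensity (y axis) of each HSPA5 probe set (left) and each HSP90B1 probe set (right) on the 8 arrays (x axis), 1 point per array, with the 4 conditions in 2DG left of the dotted line. As deposited, every point in 2DG lies above every point without 2DG on the same probe set, and 211936_at is highest in 2DG+CC (13.42) and 2DG+Phen (13.41).

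Both genes stood near the top of the array in 2DG against control. HSPA5 was higher in 2DG than in control by 1.71 (log2) on 211936_at and 1.83 on 230031_at, or 3.27-fold and 3.55-fold. HSP90B1 was higher by 2.00 on 200598_s_at, 1.94 on 216449_x_at, 1.51 on 216450_x_at and 1.46 on 200599_s_at, or between 2.75-fold and 3.99-fold. All 6 probe sets passed 2-fold, as did 3.19% of all expressed probe sets (2.53% passed it in the other direction). Of these probe sets 0.581% had a difference at least as high as that of 211936_at and 0.342% as high as that of 216449_x_at. Scaled on the poly-A controls, the 6 differences were between 1.10 and 1.64, and all still passed 2-fold.

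With compound C the 2 genes parted. In 2DG+CC the difference to 2DG was −1.40, −1.25, −0.95 and −0.42 on the HSP90B1 probe sets 200598_s_at, 216449_x_at, 200599_s_at and 216450_x_at. For HSPA5 it was 0.52 on 211936_at and −0.09 on 230031_at. With the fold over control in 2DG set at 100%, HSP90B1 kept 37.8%, 42.1%, 51.6% and 74.7% with compound C, whereas HSPA5 kept 144% and 94.2%. This percentage compares folds, so a value back at the control level would still keep part of it. Over control, 2DG+CC was higher by 0.59, 0.69, 0.51 and 1.09 on the HSP90B1 probe sets in the same order, and by 2.23 and 1.74 on HSPA5. The poly-A controls read 1.17 higher in 2DG+CC than in control and the hybridization controls 0.67. Whether HSP90B1 lay above control thus rests on the scaling, while HSPA5 stayed above it. Of the 4 HSP90B1 probe sets 2 were lower by 2-fold or more, and of the 2 for HSPA5 0 were, against 23.0% of the expressed probe sets, with 11.0% higher by as much. Such a difference was common on the array, and 18.4% of probe sets were at least as low as 216449_x_at. For HSP90B1 the count was 3 of 4 after quantile normalization or on the hybridization controls and 4 of 4 on the poly-A controls. The value of HSPA5 on 211936_at was 0.74 with the array medians set equal and 0.50 after quantile normalization, 0.04 when scaled on the hybridization controls and −0.29 on the poly-A controls, so its direction rests on the scaling, as does that of 230031_at, which gave 0.13, −0.13, −0.57 and −0.90 in the same order.

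The gap between the genes does not depend on a constant added to an array. In 2DG+CC against 2DG, HSPA5 on 211936_at lay 1.77 above HSP90B1 on 216449_x_at, and over all 8 pairs of an HSPA5 and an HSP90B1 probe set the gap was positive, between 0.34 and 1.93. With versipelostatin it was positive in 6 of 8 pairs, between −0.52 and 1.09, and with phenformin in 4 of 8, between −0.95 and 0.96. In 2DG against control the gap lay between −0.29 and 0.37, positive in 4 of 8. These gaps come from single arrays and were not tested. The pairs share probe sets and arrays, so they are not separate measurements. How often other pairs of genes show gaps of this size was not counted.

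With versipelostatin all 6 probe sets read below 2DG alone. HSP90B1 differed by −1.65 on 200598_s_at, −1.48 on 216449_x_at, −1.18 on 200599_s_at and −0.85 on 216450_x_at. HSPA5 differed by −1.37 on 230031_at and −0.56 on 211936_at. Lower by 2-fold or more were 3 of 4 and 1 of 2, against 18.3% of the expressed probe sets (6.95% were higher by as much), and none of the 4 other scalings turned any of the 6 directions. With the array medians set equal 200599_s_at was no longer past 2-fold (−0.95), which left 2 of 4 for HSP90B1, while on the hybridization or poly-A controls 4 of 4 passed (216450_x_at at −1.15 and −1.34). HSP90B1 kept 31.9% to 55.5% of its fold in 2DG and HSPA5 kept 38.6% and 67.8%, on the scale where control itself keeps a part. Over control, 2DG+VST was higher by only 0.28 to 0.66 on HSP90B1, and by 0.46 on 230031_at and 1.15 on 211936_at. The poly-A controls read 0.85 higher in 2DG+VST than in control, so only 211936_at stays above control when scaled on them. On 211936_at the difference from 2DG alone was −1.05, past 2-fold, under the poly-A scaling.

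With phenformin HSP90B1 stood near its level in 2DG, with differences of −0.44, −0.24, −0.15 and 0.26 on 200598_s_at, 216449_x_at, 200599_s_at and 216450_x_at. On HSPA5 the probe sets went opposite ways, 0.52 on 211936_at and −0.69 on 230031_at. None of the 6 passed 2-fold, while 20.2% of the expressed probe sets were lower by that much and 7.35% higher. Setting the array medians equal turned 216449_x_at to 0.04 and 200599_s_at to 0.13, and scaling on the poly-A or hybridization controls turned 216450_x_at to −0.04 and −0.07. The opposite directions of the HSPA5 probe sets were also found under all 4 other scalings, at 0.19 to 0.80 and at −1.01 to −0.40.

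**Figure D2:**
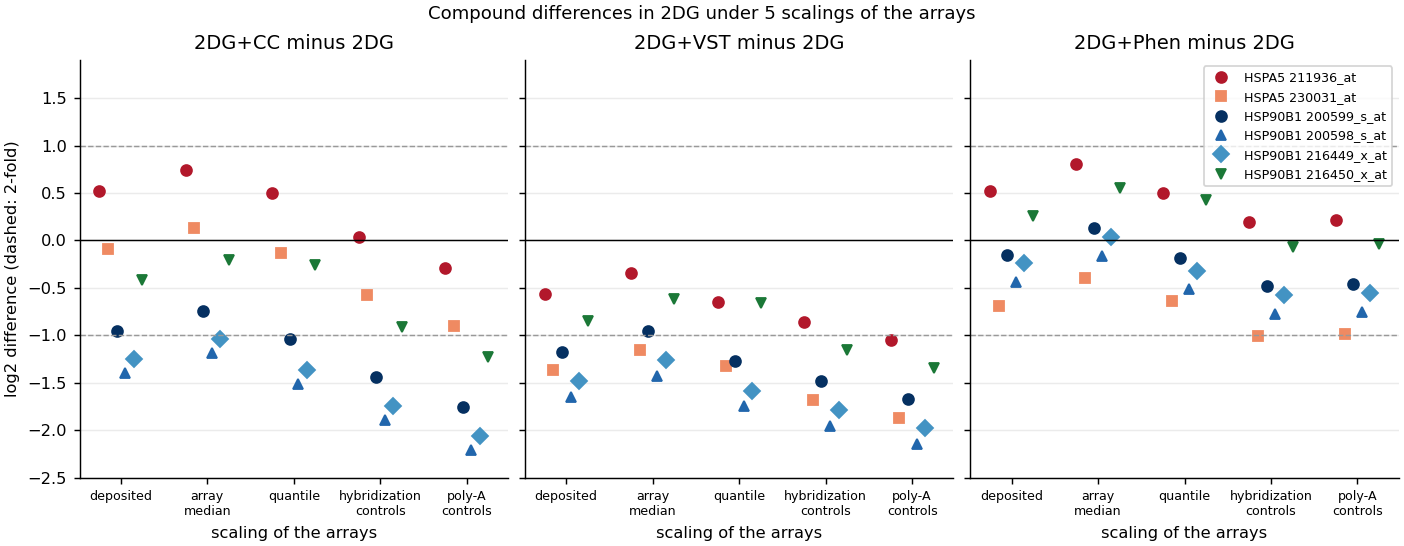
Log2 difference (y axis) between 2DG with a compound and 2DG alone, for compound C (left), versipelostatin (middle) and phenformin (right), with the deposited values and after 4 other scalings of the arrays (x axis), 1 point per probe set. With compound C the HSPA5 probe sets lie above all HSP90B1 probe sets under each scaling, and 211936_at crosses 0 (0.52 as deposited, −0.29 on the poly-A controls).

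Without 2DG, 5 of the 6 probe sets read lower with compound C than in control. The difference from control was −0.60 for HSPA5 on 211936_at and −0.67 to −0.54 on the HSP90B1 probe sets, while 230031_at was higher by 0.31. On the whole array, 8.96% of the expressed probe sets were as low as 211936_at or lower. Versipelostatin alone gave 0.36 on 211936_at and −0.19 on 230031_at, and −0.13 to 0.17 on HSP90B1. Phenformin alone gave 0.09 and 0.06 on HSPA5 and −0.16 to 0.03 on HSP90B1. None of these 18 differences passed 2-fold, which 4.32% of the expressed probe sets did upward and 2.86% downward with compound C, 2.86% and 3.37% with versipelostatin, and 2.75% and 3.09% with phenformin. Differences under 0.1 have no settled direction, since scaling on the poly-A controls turned 4 of them (all 3 that were positive with phenformin, and 200599_s_at with versipelostatin) and the hybridization controls turned 5.

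Read the other way, as 2DG with a compound against that compound alone, 2DG went with clearly higher values under compound C and phenformin and with slightly higher ones under versipelostatin. Under compound C, HSPA5 on 211936_at was higher by 2.83 (7.13-fold), the largest difference of any member in any of the 10 comparisons, and 230031_at by 1.43. HSP90B1 was higher by 1.15 to 1.70. All 6 passed 2-fold, against 11.2% of the expressed probe sets (24.6% were lower by as much), but when scaled on the poly-A controls 211936_at alone did so (1.73), and the other 5 were between 0.04 and 0.59.

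Under phenformin, HSPA5 was higher by 2.13 and 1.08 and HSP90B1 by 1.39 to 1.77, again 6 of 6 past 2-fold, against 8.11% (17.7% lower). Under versipelostatin, HSPA5 was higher by 0.78 and 0.65 and HSP90B1 by 0.18 to 0.79, with 0 of 6 past 2-fold, where 6.39% of the expressed probe sets were (15.5% lower). Scaled on the poly-A controls, all 6 were below 0 under versipelostatin, between −0.63 and −0.03, and under phenformin they were between 0.68 and 1.73. These comparisons share arrays with those above, since 2DG+CC, 2DG+VST and 2DG+Phen each enter both.

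**Figure D3:**
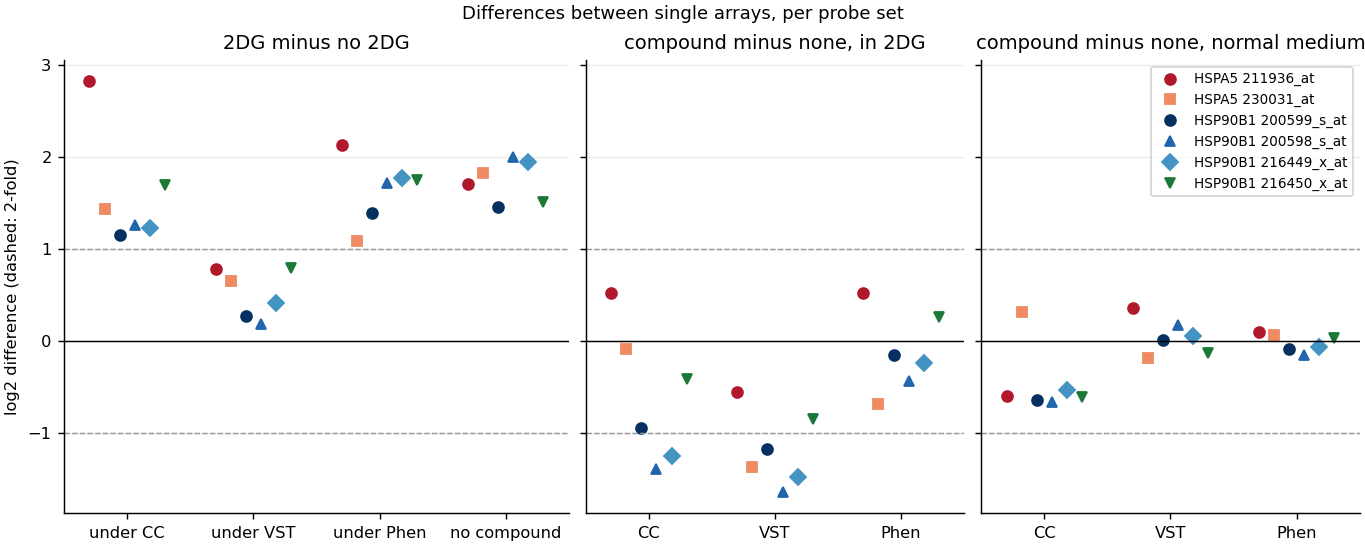
Log2 difference (y axis) of each HSPA5 and HSP90B1 probe set (1 point each) for arrays with 2DG minus arrays without it under each compound (left), each compound minus none in 2DG (middle) and each compound minus none in normal medium (right). The largest value is that of HSPA5 on 211936_at with 2DG under compound C (2.83), and in the left panel no probe set under versipelostatin reaches the dashed line of 2-fold.

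GRP78 works with J-domain co-chaperones that hand it substrates and with exchange factors that release them. Of 14 such genes, 12 were expressed, and in 2DG 9 exceeded control by 2-fold or more and 0 were lower by as much, with a median of 1.18, against 3.06% of all measured genes and a median of 0.01. HYOU1, an HSP70-related exchange factor, was higher by 2.11, and DNAJB9 (ERdj4), DNAJB11 (ERdj3) and DNAJC3 (p58IPK), all J-domain proteins, by 1.98, 1.87 and 1.36. SDF2L1, a partner of DNAJB11, was higher by 1.80 and MANF, a secreted ER protein that binds GRP78, by 1.24. Scaled on the poly-A controls, 4 of the 12 passed 2-fold and the median was 0.81.

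With compound C these cofactors parted. DNAJB9 and HYOU1 differed from 2DG alone by −1.79 and −1.61, while DNAJC3, DNAJC1 and MANF differed by 0.12, 0.06 and −0.27. Of the 12, 5 were lower by 2-fold or more and 0 higher (median −0.88, against −0.23 over all genes, of which 25.4% were as low). With versipelostatin 8 of 12 were lower by 2-fold or more (median −1.28, against −0.18 and 20.0%), led by SDF2L1 at −2.05, and DNAJB9 was at 0.17. With phenformin 4 of 12 were (median −0.79, against −0.26 and 21.8%), HYOU1 at −1.36 among them, and DNAJB9 and MANF were higher by 0.77 and 0.40. DNAJC16 and SDF2 are in all 3 counts, at −2.62 and −2.04 with compound C, though in 2DG they differed from control by only 0.53 and 0.0. Their values in 2DG with the compounds were 4.95 to 5.74 and 5.26 to 5.77, under the limit for expression. The list medians kept their sign under all 4 other scalings, and under the poly-A scaling 10, 10 and 6 of the 12 were lower by 2-fold or more with compound C, versipelostatin and phenformin. With the array medians set equal 5, 6 and 3 were, and 1 was higher by as much with phenformin.

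**Figure D4:**
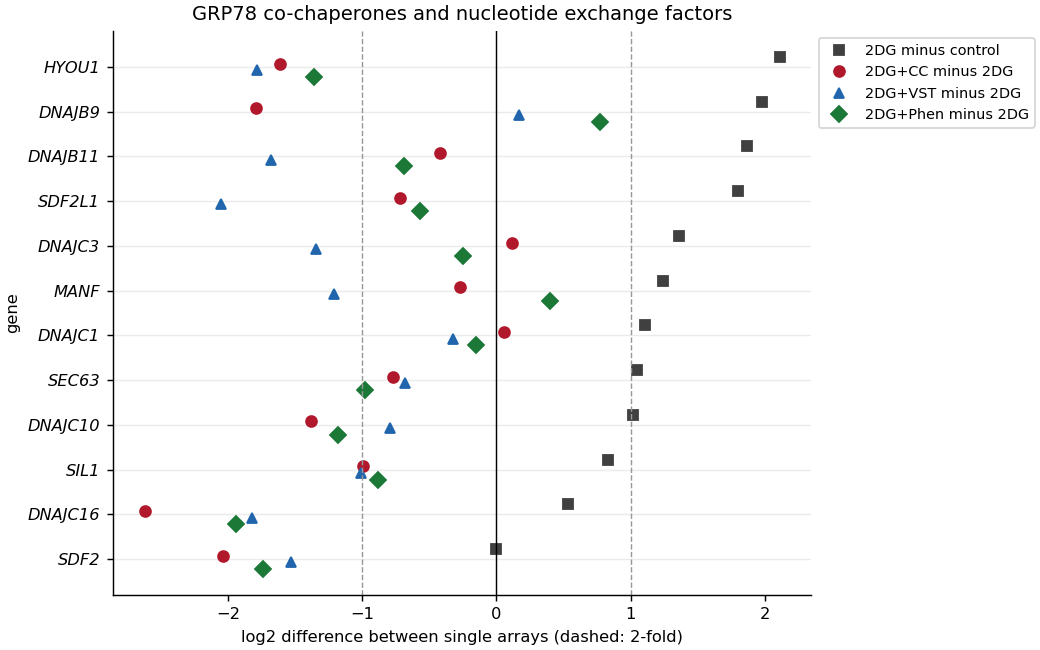
Log2 difference (x axis) of the 12 expressed GRP78 co-chaperones and exchange factors (y axis, ordered by the difference in 2DG) for 2DG minus control (squares), 2DG+CC minus 2DG (circles), 2DG+VST minus 2DG (triangles) and 2DG+Phen minus 2DG (diamonds). Against 2DG without a compound, HYOU1 is lower with all 3 compounds, while DNAJB9 is lower only in 2DG+CC (−1.79).

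GRP94 serves a narrower set. Of 25 genes listed for its cofactor and its clients, 10 were expressed, and 0 differed by 2-fold in 2DG against control (median 0.41). Of all genes 3.06% were higher and 1.9% lower by as much (median 0.01), so a count of 0 is near that share. CNPY3, its cofactor for Toll-like receptors, was higher by 0.87 and ITGB5, an integrin subunit, by 0.96. The 7 Toll-like receptor genes listed did not reach the limit for expression. With compound C, versipelostatin and phenformin, 4, 5 and 4 of the 10 read lower than 2DG by 2-fold or more (medians −0.80, −0.83 and −0.80), against 25.4%, 20.0% and 21.8% of all genes (medians −0.23, −0.18 and −0.26), among them the integrin ITGA2 (−2.55, −2.79 and −2.57) and LRP6, a Wnt co-receptor (−1.37, −2.71 and −2.22). The values of LRP6 with the compounds were 4.27 to 5.61, under the limit for expression. On the poly-A controls 10, 7 and 5 of the 10 passed 2-fold downward, and 3, 3 and 4 with the array medians set equal. GRP78 and GRP94 are held in the ER by a C-terminal signal that KDEL receptors retrieve. KDELR1 and KDELR3 were higher in 2DG by 0.39 and 0.86, and KDELR3 differed from 2DG alone by −1.60, −1.10 and −1.91 with the 3 compounds in that order, with 5.83 in 2DG+Phen, under the limit.

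The cytosolic and mitochondrial relatives of the 2 chaperones did not share their pattern in 2DG. HSP90AA1 and HSP90AB1, the cytosolic HSP90 genes, differed from control by −0.69 and −0.32, and TRAP1, the mitochondrial form, by −0.12. With the 3 compounds the median of these genes against 2DG was 0.31, 0.40 and 0.39 as deposited, and −0.50, −0.09 and 0.09 on the poly-A controls. Of 7 expressed HSP70 family genes besides HSPA5, HYOU1 alone passed 2-fold upward in 2DG and 0 downward, against 3.06% and 1.9% of all genes. HYOU1 is also among the GRP78 cofactors above. HSPA13, a microsomal member at 0.54, is also on the list of other ER chaperones below. HSPA9, the mitochondrial HSP70, was at 0.33 and HSPA4 at −0.05. With the compounds 1, 2 and 2 of the 7 read lower than 2DG by 2-fold or more, against 25.4%, 20.0% and 21.8% of all genes, HSPA13 among them with versipelostatin (−2.48) and phenformin (−2.58). With compound C the count was 6 of 7 on the poly-A controls and 4 of 7 on the hybridization controls. HSPA1A, HSPA1B and HSPA8 had no probe set annotated to 1 of them alone and were not read.

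Among the other ER chaperones and folding enzymes, 7 of 20 passed 2-fold upward in 2DG and 0 downward (median 0.65), against 3.06% and 1.9% of all genes (median 0.01). They included CRELD2 (2.00), PDIA4 and PDIA3, both protein disulfide isomerases (1.95 and 1.64), and ERP44, which retains secretory proteins (1.5). From 2DG alone, PDIA4 differed by −2.06, −1.60 and −1.52 with compound C, versipelostatin and phenformin, and CALR, which encodes the lectin chaperone calreticulin, by −0.26, −0.37 and −0.07. In these 3 comparisons 9, 9 and 8 of the 20 passed 2-fold downward (medians −0.92, −0.93 and −0.76) and 0 upward, where 25.4%, 20.0% and 21.8% of all genes passed it downward. The counts were 15, 12 and 11 on the poly-A controls, and 5, 7 and 5 with the array medians set equal.

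Of 17 UPR sensors and factors that bind the promoters of the 2 genes, 15 were expressed. In 2DG, DDIT3 (CHOP), ERN1 (IRE1) and XBP1 passed 2-fold upward, by 2.51, 1.57 and 1.03, and 0 downward, against 3.06% and 1.9% of all genes. ERN1 was under the limit for expression in control (4.72). With compound C, versipelostatin and phenformin 3, 3 and 3 of the 15 read lower than 2DG by 2-fold or more and 2, 0 and 1 higher, which is near the share of all genes that were lower (25.4%, 20.0% and 21.8%). On the poly-A controls 8, 6 and 4 were lower and 0 higher with any compound. With the array medians set equal 3, 3 and 1 were lower and 2, 0 and 2 higher. The values of XBP1 were −1.49, −1.57 and 0.38, and without 2DG it was higher with versipelostatin than in control (1.14). Those of DDIT3 were −2.07, −0.12 and 0.96. Without 2DG, DDIT3 was also higher than in control, by 2.10, 2.97 and 1.20 with compound C, versipelostatin and phenformin. For ERN1 the differences without 2DG were 2.01, 1.52 and 0.42, with Phen under the limit (5.14). Higher values of these genes were thus not particular to 2DG. EIF2AK3, which encodes PERK, read 8.43 in 2DG+CC, against 6.86 in 2DG, while 2DG+VST (2.94, below the median of all probe sets) and 2DG+Phen (4.83) were under the limit for expression, so no size is given for them. For MBTPS2, the site-2 protease that releases ATF6 from the membrane, the values with versipelostatin and phenformin were −0.09 and −0.56, and 2DG+CC was under the limit (5.09, against 8.31 in 2DG). For NFYA, a subunit of NF-Y, the 3 values were 1.26, −0.81 and 0.16, with 5.95 in 2DG+VST, just under the limit. ATF6 itself was at 0.05 in 2DG and differed by −0.40, 0.08 and −0.52 with the compounds.

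The pattern of HSPA5 on 211936_at over the 8 arrays was most like those of MMP1 (r = 0.96), MMP3 (0.957), PATL1 (0.937), SPTLC2 (0.917) and ELF1 (0.901), among 5716 genes whose values ranged over at least 1. HSP90B1 on 216449_x_at was most like SSR3 (0.945), MMP1 and MANF (both 0.91), ERP44 (0.891) and RPN1 (0.886). MMP1 encodes an interstitial collagenase and MMP3 stromelysin, SSR3 a translocon-associated protein and RPN1 a subunit of oligosaccharyltransferase. MMP1 was at 9.32 in 2DG+CC, 7.76 in 2DG+VST, 9.80 in 2DG+Phen and 9.46 in 2DG, against 4.67 in CC, 6.48 in VST, 6.70 in Phen and 7.01 in control, so that like HSPA5 it was lowest with compound C alone, there under the limit for expression. MMP3 was under the limit in CC (4.83), VST (5.78) and Phen (5.23) and just over it in control (6.05), so its likeness rests in part on values near the floor. HSPA5 and HSP90B1 correlated at 0.86 with each other, and 18 of the 5716 genes were at least that like HSPA5. By rank correlation, 1 of the 5 genes stayed among the first 5 for each. All these values rest on the same 8 arrays, carry no error and say nothing of a shared control.

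The genes that share the element with HSPA5 and HSP90B1 were then read in 2DG. Besides these, 23 genes held the 19-base pattern in the window, of which 10 were expressed, 6 had probe sets under the limit and 7 had none of their own. Of the 10, genes that act in ER folding, translocation or the UPR are shown beside the sites of HSPA5 and HSP90B1. They are written 5′ to 3′ with the CCAAT and CCACG parts in capitals.
HSPA5: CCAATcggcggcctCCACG
HSP90B1, first site: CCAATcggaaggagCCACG
HSP90B1, second site: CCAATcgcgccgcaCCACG
CRELD2: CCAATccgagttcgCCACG
PDIA6: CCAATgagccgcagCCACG
XBP1: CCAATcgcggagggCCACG
CANX: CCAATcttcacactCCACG
CALR: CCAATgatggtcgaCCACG
SERP1: CCAATtcgctgtctCCACG
CANX held the letters shown both from −189 to −171 and from −151 to −133 before the start, each time on its own strand. EIF2A carries the letters of SERP1 on the other strand, and both genes lie on chromosome 3. They may thus share a single site, so the 10 genes need not be separate carriers. CRELD2, PDIA6, CANX, CALR and XBP1 were also members of the lists above. SERP1 encodes a translocon protein that protects nascent chains, CANX the lectin chaperone calnexin, PDIA6 a disulfide isomerase and EIF2A an initiation factor.

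All 10 were higher in 2DG than in control, by 0.38 to 2.00 with a median of 0.78, against a median of 0.01 over all genes. Past 2-fold were CRELD2 (2.00), PDIA6 (1.40) and XBP1 (1.03), or 3 of 10, against 3.06% of all measured genes, and CANX followed at 0.99. CALR (0.64), EIF2A (0.59) and SERP1 (0.55) were below 2-fold, as were TRIM5 (0.81), TMEM120A (0.75) and SYNPO (0.38), whose sites are not shown. The poly-A scaling lowers each by 0.36, which leaves a median of 0.42 and 2 past 2-fold. With compound C the median difference from 2DG alone was −0.88 (5 of 10 lower by 2-fold or more), with versipelostatin −0.79 (3 of 10) and with phenformin −0.60 (2 of 10). Over all genes the medians were −0.23, −0.18 and −0.26, and 25.4%, 20.0% and 21.8% were lower by as much, so that the count with phenformin is no more than the share of all genes. On the poly-A controls the counts were 9, 6 and 5 of 10. CALR, like 5 of the 6 HSPA5 and HSP90B1 probe sets, was lower with compound C alone than in control (−1.06).

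**Figure D5:**
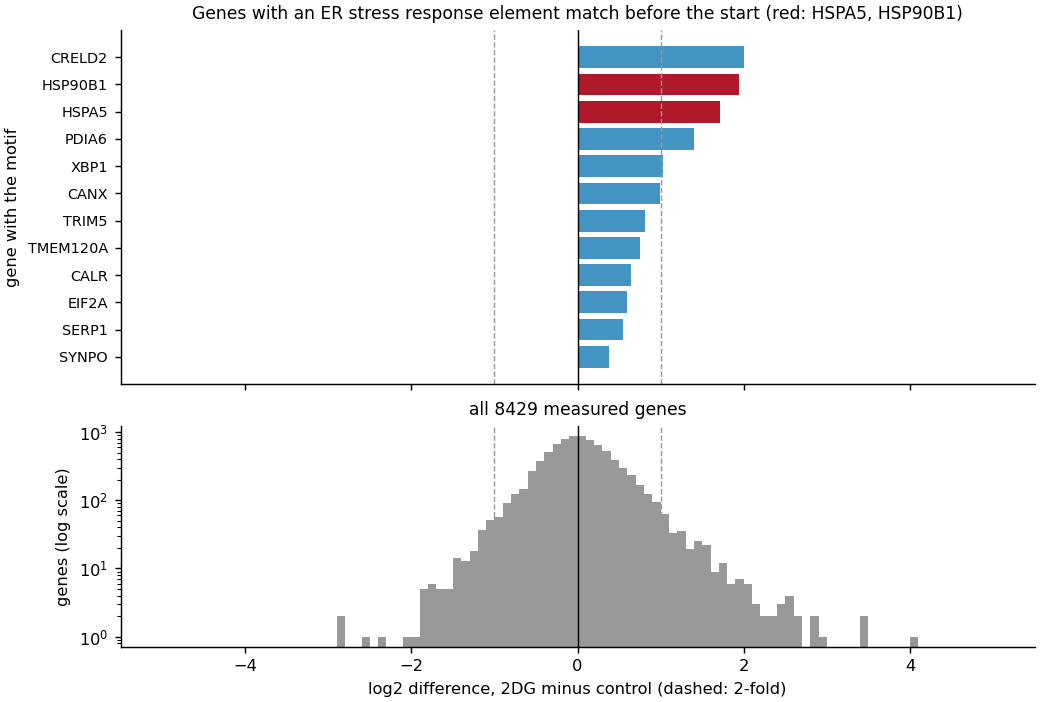
Log2 difference (x axis), 2DG minus control, of the 12 measured genes whose promoter holds the pattern (top, bars from 0, HSPA5 and HSP90B1 in red) and the number of all 8429 measured genes at each difference (bottom, log-scaled y axis). All 12 bars point to higher values in 2DG, and 5 pass the dashed line of 2-fold.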

How the data were processed

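Total RNA (100 ng) of each of the 8 HT1080 samples was labelled and hybridized to 1 array. RMA, named without a version in the submitters' processing notes, gave the deposited log2 intensities. RMA fits the probes of a set and normalizes between arrays on the assumption that most transcripts do not differ, so a shift of the whole transcriptome is not visible in its values. Gene symbols came from the platform annotation, updated by gene number through RefSeq (GRCh38.p14). Of the probe sets, 62 controls were left out, and of the rest 41091 had 1 symbol, 1801 several and 11721 none in the annotation.

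No model was fitted, since each condition has 1 array. Differences of log2 values were taken for 10 pairs of arrays, 2-fold was the limit for a call, and a gene in a list was read on its expressed probe set (limit 6) with the highest mean. Genes were named as members, list members, carriers of the promoter pattern or the 5 most correlated genes. The members and lists were chosen with earlier results of these data known. Alternatives were 4 other scalings, the median over the probe sets of a gene, folds of 1.5 and 3, expression limits of 5 and 7 or none, and rank correlation. The calculations were checked on simulated data, in Python 3.11.15 with numpy 2.4.6, pandas 2.3.3 and matplotlib 3.10.9. Protein sequences were not used here.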

Additional observations from a re-analysis of the deposited data

Results flagged for a closer look

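Compound C and versipelostatin gave differences of opposite sign with and without 2DG on some probe sets, at least 2-fold apart. None of these contrasts was tested, since each rests on 4 single arrays. HSPA5 on 211936_at differed with compound C by 0.52 in 2DG and by −0.60 in normal medium, which is 1.13 apart, but the values were −0.29 and −0.67 on the poly-A controls and 0.04 and −0.79 on the hybridization controls, which in both cases is less than 2-fold apart. The other HSPA5 probe set, 230031_at, went the opposite way, with −0.09 in 2DG and 0.31 in normal medium (−0.40 apart). HSP90B1 with versipelostatin differed on 200598_s_at by −1.65 in 2DG and 0.17 in normal medium (−1.82 apart), on 216449_x_at by −1.48 and 0.05 (−1.53 apart) and on 200599_s_at by −1.18 and 0.01 (−1.19 apart), the values in normal medium being close to 0 (on the hybridization controls those of 216449_x_at and 200599_s_at were −0.01 and −0.05).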

How the results depend on the processing

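The results named first are the differences of HSPA5 on 211936_at and HSP90B1 on 216449_x_at in 2DG against control and with each compound against 2DG alone, 8 in all. None changed sign once past 2-fold. Scaled on the poly-A controls, HSPA5 gave −1.05 with versipelostatin, past 2-fold, and −0.29 with compound C. Setting the array medians equal turned HSP90B1 with phenformin to 0.04, and the median over its probe sets turned HSPA5 with phenformin to −0.09. At a 3-fold limit HSP90B1 no longer passed with compound C (−1.25) or versipelostatin (−1.48). Quantile normalization, the hybridization controls and a 1.5-fold limit changed no sign and no call among the 8. Among the other results, scaling on the poly-A controls took 7 under 2-fold, brought 3 past it and turned 11 small differences. The shares of all probe sets past 2-fold stayed within 1.5 times under limits of 5 and 7, and all 20 moved beyond that with no limit, when unexpressed probe sets are counted too. No paired analysis was possible because each condition has 1 array. The precision is limited by that number, and how far the brightness of 211936_at limits its differences was not tested.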
